A study of Mus musculus with 24 samples.

Results

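Long intergenic noncoding RNAs (lincRNAs) are long transcripts from genes that lie between protein-coding genes and that are not classed as coding. Some of them are retained in the nucleus and build or occupy nuclear bodies, some act on the genes beside them, and some are host transcripts from which microRNAs or small nucleolar RNAs are cut. In mouse macrophages several are known as genes that follow Toll-like receptor and interferon signals, among them Ptgs2os2 (lincRNA-Cox2), Mir155hg and AW112010. The 127 genes described here are the rows of the deposited expression table typed lincRNA whose mean level over the 24 libraries was at least 1 CPM (read counts scaled to library size by the authors). They were 127 of 326 lincRNA rows and of 13568 rows in all. Because a mean level chose them, the levels below are a description, and the rule used no contrast between groups. It still bears on the response to stimulation, since 55 of the 127 had a mean under 1 CPM in either the stimulated (37) or the unstimulated libraries (18) and so were admitted through the other state.

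Macrophages were grown for 7 days from bone marrow in medium conditioned by L929 cells, with glucose at 5 mmol/L for the cells of every mouse, and were selected by adhesion. The marrow came from male C57Bl/6 mice, 6 with diabetes induced by streptozotocin, which destroys the pancreatic cells that make insulin, and 6 non-diabetic controls. A portion of each mouse's cells received lipopolysaccharide (LPS, the bacterial ligand of TLR4) at 100 ng/mL together with recombinant interferon-gamma at 10 ng/mL for 6 h, and the remainder was left unstimulated. The 4 groups of 6 libraries were therefore stimulated diabetic, stimulated control, unstimulated diabetic and unstimulated control cells, with 1 mouse behind each pair of libraries. The diabetes is that of a toxin model, and the cells were compared after a week in culture outside the animal. Ages are not given in the sources used here. Other label fields name the material as genomic DNA, against the RNA extraction and stranded mRNA library kit of the protocols, and the values were treated as RNA-seq.

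The libraries held 16754771 to 34130060 reads in the listed genes, so 3 reads corresponded to 0.0835 to 0.175 CPM and the low members were limited by counting error. The stimulus was read in every culture, with a summed level of Nos2, Tnf and Cxcl9 of 24240 to 29264 CPM in stimulated diabetic, 20805 to 23421 in stimulated control, 54.6 to 60.4 in unstimulated diabetic and 56.6 to 84.9 in unstimulated control libraries. All 9 macrophage markers were tested, and their sum lay between 14496 and 19996 CPM in every library. The summed levels of 3 lists of other cells were higher in the unstimulated diabetic libraries, though not every gene of them was. The 2 B lineage genes analysed, of 5 listed, summed to 24.3 to 58.3 CPM in unstimulated diabetic and 7.57 to 20.7 CPM in unstimulated control libraries, and the 2 neutrophil genes, of 6, to 34.1 to 43.7 and 14.3 to 23.3 CPM. The 4 osteoclast genes analysed, of 5 listed, summed to 58.1 to 94.5 CPM in unstimulated diabetic and 24.3 to 54.7 CPM in unstimulated control libraries. The B lineage sum was mostly Ighm (36.7 CPM in unstimulated diabetic and 11.6 CPM in unstimulated control cells on average), and Cd79b ran the other way (0.962 and 1.42 CPM), as did the osteoclast gene Acp5 (4.54 and 5.12 CPM). The other genes of these 3 lists were not analysed here. The 22 type I interferon-stimulated genes of another list ran the other way, with sums of 31007 to 35234 CPM in stimulated diabetic, 40275 to 53786 in stimulated control, 737 to 1051 in unstimulated diabetic and 1693 to 3579 in unstimulated control libraries. The part of these lists in the differences between phenotypes given below was not tested. In bulk cultures, fewer cells of a type and less RNA per cell cannot be told apart.

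Gm42418 and its neighbour Gm26917 set 2 libraries apart. RefSeq lists Gm42418 as a synonym of an 18S rRNA-related pseudogene on chromosome 17, and the part of ribosomal RNA in its reads was not tested. It had 3875 CPM in the stimulated control library of mouse 6, where the other 5 had at most 171.7, and 980.4 CPM in the unstimulated diabetic library of mouse 3, where the other 5 had at most 123.9. Gm26917 was high in the same libraries, at 138.1 and 65.92 CPM. Neither was called between phenotypes in either state with all libraries (limma, adjusted p from 0.12 to 0.93). Without these 2 libraries, Gm42418 was higher in stimulated cells by 0.59 in diabetic and 0.46 in control cells (adjusted p = 0.0019 and 0.010), and Gm26917 was lower in diabetic cells, with differences of -0.20 after stimulation and -0.26 without it (adjusted p = 0.0057 and 0.0020). Without them the counts of members called below were 44 instead of 43 after stimulation and 22 instead of 25 without it between phenotypes, 118 and 120 for the responses of diabetic and control cells, 24 for the interaction and 42 for both states together. The shares of all tested genes called without these 2 libraries are not given here.

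Most members were scarce. Of the 127, 50 averaged 1 to 2 CPM, 39 averaged 2 to 5 CPM, 16 averaged 5 to 10 CPM, 18 averaged 10 to 100 CPM and 4 averaged over 100 CPM. Just inside the threshold stood B230303O12Rik (1.03 CPM), Gm28187 (1.03), CT009718.2 (1.01) and Gm13391 (1.01), and just outside it Gm26857 (0.987), 4930555A03Rik (0.974), 2610037D02Rik (0.971) and D130017N08Rik (0.954). The reads of the 127 members made up 0.251 to 0.303% of all listed reads in stimulated diabetic, 0.278 to 0.603% in stimulated control, 0.370 to 0.437% in unstimulated diabetic and 0.332 to 0.397% in unstimulated control libraries. Per kilobase of exon the order of the most abundant members was AW112010 with a mean of 947 CPM per kb, Gm42418 with 176, Malat1 with 98.7, Neat1 with 45.9, Mir142hg with 33.9, AC151730.2 with 19.7 and Bc1 with 18.4 CPM per kb.

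The genes had few exons compared with coding genes. All 127 were found in the GENCODE M21 annotation of GRCm38, 118 of them at identical coordinates, and 123 were typed lincRNA there. Their longest transcripts had a median of 2134 bases and 2 exons, and 33 had a single exon, while the tested protein-coding genes had medians of 3442 bases and 8 exons. Exons of 44 members overlapped an exon of another gene, counting 19 on the same strand and 32 on the opposite strand, some of them in both. The kit is stranded, but no source used here says whether counting used strand, so that reads of such pairs may not be separated. The nearest tested protein-coding gene lay at a median distance of 11480 bp, and within 10 kb for 63 members.

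The mature microRNAs of the host genes that the results turn on are shown here because 2 of the hosts (Mir9-3hg and Mir17hg) responded differently in diabetic and control cells. The libraries measured the host transcripts, not these mature products. Sequences are from RefSeq (GRCm38.p6), in lower case with the seed, bases 2 to 8, in capitals.
miR-155-5p (Mir155hg, chr16:84714143-84714165, + strand): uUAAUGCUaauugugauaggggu
miR-9-5p (Mir9-3hg, chr7:79505279-79505301, + strand): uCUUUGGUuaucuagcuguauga
miR-17-5p (Mir17hg, chr14:115043684-115043706, + strand): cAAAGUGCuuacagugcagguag
miR-20a-5p (Mir17hg, chr14:115044183-115044205, + strand): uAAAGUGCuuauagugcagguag
miR-18a-5p (Mir17hg, chr14:115043867-115043889, + strand): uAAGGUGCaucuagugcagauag
miR-142a-3p (Mir142hg, chr11:87756903-87756925, + strand): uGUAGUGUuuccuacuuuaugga
All 6 lie inside the span of their host gene. The miR-17-5p and miR-20a-5p products of the Mir17hg cluster share the seed AAAGUGC, and the other 4 products have seeds of their own.

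The lincRNAs with the largest responses to LPS and interferon-gamma rose in both phenotypes. AW112010, an interferon-gamma-induced transcript of mouse immune cells (chr19:11047617-11050566, - strand, 3 exons), was barely expressed without stimulation. Its lowest, median and highest levels were 1249, 1422 and 1473 CPM in stimulated diabetic, 1393, 1638 and 1858 CPM in stimulated control, 3.26, 3.81 and 4.51 CPM in unstimulated diabetic and 4.63, 6.12 and 9.47 CPM in unstimulated control libraries. All 12 stimulated libraries lay above all 12 unstimulated ones. Its mean level was 358 times higher in stimulated than in unstimulated diabetic cells and 249 times higher in stimulated than in unstimulated control cells. On the log2(CPM + 1) scale, which understates the change of low genes, this was 8.16 ± 0.12 (SE; limma, Benjamini-Hochberg over 11710 genes, adjusted p = 2.9e-25) in diabetic and 7.79 ± 0.12 (adjusted p = 6.5e-25) in control cells.

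Mir155hg, the host of miR-155, which is induced by Toll-like receptor signals and promotes inflammatory responses, had 28.0, 32.8 and 40.6 CPM (lowest, median and highest) in stimulated diabetic and 27.8, 37.5 and 44.5 CPM in stimulated control libraries. Its levels were 0.0462 to 0.140 CPM in unstimulated diabetic and 0.0378 to 0.115 CPM in unstimulated control libraries. It rose by 5.00 ± 0.09 in diabetic and 5.13 ± 0.09 in control cells on the log2(CPM + 1) scale (limma, adjusted p = 9.5e-29 and 4.9e-29). The difference between phenotypes after stimulation was -0.12 ± 0.09 (adjusted p = 0.27), with overlapping libraries.

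Ptgs2os2, or lincRNA-Cox2, which lies 50816 bp from Ptgs2 and is known to regulate immune genes in mouse macrophages, had 19.7, 22.5 and 24 CPM (lowest, median and highest) in stimulated diabetic and 24.8, 25.7 and 26.5 CPM in stimulated control libraries. Its medians were 0.602 CPM in unstimulated diabetic and 0.537 CPM in unstimulated control libraries. Every stimulated diabetic library lay below every stimulated control library. The response was 3.83 ± 0.08 in diabetic and 4.08 ± 0.08 in control cells, and the phenotypes differed after stimulation by -0.20 ± 0.08 (limma, adjusted p = 0.029). That difference is small and was not called with pseudocounts of 0.25 CPM (adjusted p = 0.16), with total-read scaling (-0.10, adjusted p = 0.33) or within either block of columns described below. Ptgs2 itself, the inducible cyclooxygenase, rose by 9.62 ± 0.15 in diabetic and 9.15 ± 0.15 in control cells, and its difference after stimulation was 0.24 ± 0.15 (adjusted p = 0.17).

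**Figure D1:**
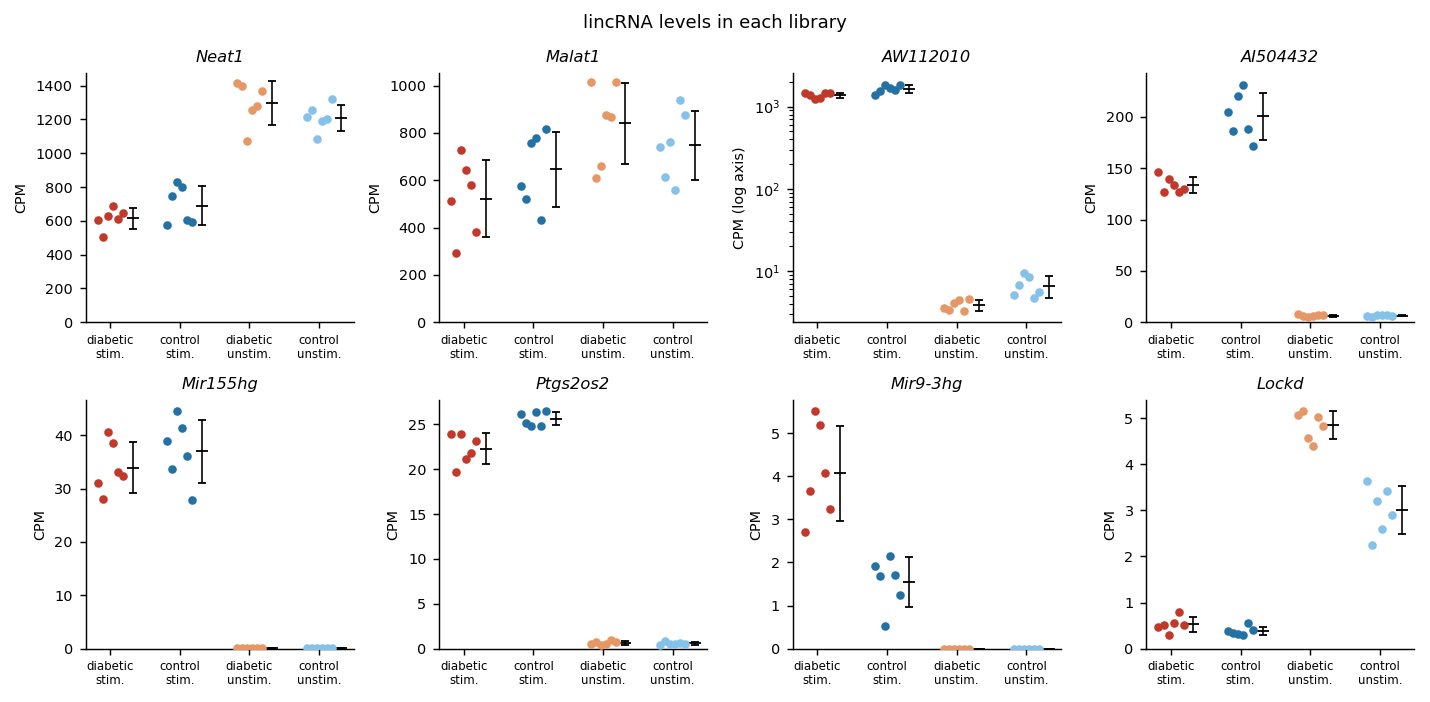
Level (CPM) of 8 lincRNAs in each of 24 libraries, by group from left to right stimulated diabetic, stimulated control, unstimulated diabetic and unstimulated control. Points are libraries, the dash and bars beside them the mean and SD of 6 libraries, and the axis of AW112010 is logarithmic. Neat1 and Lockd were lower in stimulated cells, AW112010, AI504432, Mir155hg and Ptgs2os2 were higher, and Mir9-3hg was read only in stimulated cells.

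AI504432 (chr3:107039504-107054347, + strand) stands 1434 bp from Kcna3, the voltage-gated potassium channel Kv1.3, on the same strand. It had 127, 132 and 147 CPM (lowest, median and highest) in stimulated diabetic, 171, 197 and 231 CPM in stimulated control, 4.96, 6.40 and 7.86 CPM in unstimulated diabetic and 5.31, 6.45 and 7.12 CPM in unstimulated control libraries. The stimulated diabetic libraries all lay below the stimulated control ones, and the unstimulated groups overlapped. The response was 4.20 ± 0.08 in diabetic and 4.77 ± 0.08 in control cells, and the difference between these responses, the interaction, was -0.57 ± 0.11 (limma, adjusted p = 0.00031). Kcna3 gave nearly the same values, with responses of 4.01 ± 0.07 and 4.57 ± 0.07 in diabetic and control cells and an interaction of -0.56 ± 0.09 (adjusted p = 6.9e-05). Whether reads of the coding gene's transcript run into AI504432 was not tested.

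Of the 12 tested genes of a list of lincRNAs described in innate immune cells, 6 rose and 6 fell in diabetic cells and 6 rose and 5 fell in control cells. Beside this, 35.2% of all tested genes rose and 55.1% fell in diabetic cells, and 34.9% rose and 56.4% fell in control cells. The 8 of them that are members split into 4 higher and 4 lower in stimulated diabetic cells and 4 higher and 3 lower in stimulated control cells. Gm46224, which is on no list, rose by 2.19 ± 0.09 and 2.40 ± 0.09 in diabetic and control cells, while its nearest coding gene, the inhibitory receptor gene Lilrb4a 29729 bp away, differed by 0.01 ± 0.08 and -0.13 ± 0.08.

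Gdap10, A930007I19Rik, Gm26902 and 9330175E14Rik lie in or against coding genes that also rose. Gdap10 averaged 43.9 ± 10.0 CPM in stimulated diabetic and 35.6 ± 5.71 CPM in stimulated control cells, against 5.81 ± 1.21 and 6.39 ± 0.690 CPM in the unstimulated diabetic and control cells (SD, n = 6 each). It lies on the strand of Nampt, the rate-limiting enzyme of NAD salvage, within its span, and Nampt rose by 3.62 ± 0.04 and 3.34 ± 0.04 in diabetic and control cells. A930007I19Rik lies on the opposite strand of Ric1 and rose by 2.79 ± 0.08 and 2.73 ± 0.08, with 3.33 ± 0.04 and 3.39 ± 0.04 for Ric1. Gm26902 overlaps Ch25h, the cholesterol 25-hydroxylase gene of the interferon response, on the opposite strand and rose by 2.52 ± 0.09 and 2.38 ± 0.09, with 7.22 ± 0.13 and 7.04 ± 0.13 for Ch25h. 9330175E14Rik overlaps Nlrc5, the transactivator of MHC class I genes, on the opposite strand and rose by 2.21 ± 0.07 and 1.96 ± 0.07, with 3.91 ± 0.06 and 3.60 ± 0.06 for Nlrc5. In each of these pairs the member had the smaller change on this scale, and its own transcription was not separated from reads of the partner.

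Several members were read almost only with the stimulus. Mir9-3hg, host of a copy of miR-9, which in human monocytes is induced by LPS and targets the NF-kB subunit gene NFKB1, had no read in any of 12 unstimulated libraries. Its lowest, median and highest levels were 2.72, 3.87 and 5.51 CPM in stimulated diabetic and 0.525, 1.70 and 2.16 CPM in stimulated control libraries, without overlap. Set against 3 reads in the shallowest unstimulated library of the same phenotype, its mean was at least 29.4-fold higher in stimulated diabetic and at least 12.8-fold higher in stimulated control cells. The stimulated diabetic mean was 2.64 times that of stimulated controls, a difference of 1.01 ± 0.13 on the log2(CPM + 1) scale (limma, adjusted p = 5.2e-07), and the interaction was 1.01 ± 0.19 (adjusted p = 0.00017). The difference was 0.65 among the mice of the first block of columns and 1.36 among those of the second. Its nearest tested coding gene, Polg at 33664 bp, differed by 0.20 ± 0.05 after stimulation.

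Gm1965 was read in 2 of 12 unstimulated libraries and had 1.60 ± 0.163 CPM in stimulated diabetic and 2.98 ± 0.461 CPM in stimulated control cells (SD, n = 6 each), without overlap. Its difference of -0.61 ± 0.07 (limma, adjusted p = 4.7e-08) and its interaction of -0.59 ± 0.10 (adjusted p = 4.6e-05) were both negative. Gm32568 was at 0 in all 6 unstimulated diabetic libraries and averaged 2.08 ± 0.550 CPM in stimulated diabetic cells, at least 15-fold higher. Gm35028, 12853 bp from Prdm1 (the repressor Blimp-1) on the same strand, had 1.59 ± 0.528 CPM in stimulated diabetic and 3.18 ± 0.698 CPM in stimulated control cells, and 0.0135 and 0.0114 CPM in the unstimulated diabetic and control cells. Its interaction was -0.70 ± 0.15 (limma, adjusted p = 0.00055), beside -0.37 ± 0.08 (adjusted p = 0.0014) for Prdm1. AC151730.2 had 12.2, 13.9 and 16.2 CPM (lowest, median and highest) in stimulated diabetic and 18.8, 24.6 and 25.9 CPM in stimulated control libraries, without overlap. In unstimulated cells it had 0 to 0.0634 CPM in diabetic and 0.0613 to 0.422 CPM in control libraries. Its difference after stimulation was -0.69 ± 0.09 (adjusted p = 2.6e-07), beside -0.39 ± 0.05 for Fam111a, the coding gene 4917 bp away. Calls after stimulation on the deposited log2 values, whose added prior is far smaller, were lost for Gm35028 (adjusted p = 0.097), Gm1965 (adjusted p = 0.085) and AC151730.2 (-0.73, adjusted p = 0.19). The interactions of Gm35028 (-1.09, adjusted p = 0.27) and Gm1965 (-0.11, adjusted p = 0.91) were not called on those values either.

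On the values as scaled by the authors, fewer lincRNAs rose than fell. In diabetic cells 116 of the 127 were called between states, 39 higher and 77 lower in stimulated cells, and in control cells 118 were called, 43 higher and 75 lower. Over all 11710 tested genes 90.3% were called in diabetic cells (35.2% higher, 55.1% lower) and 91.3% in control cells (34.9% higher, 56.4% lower), so the share of members called was near that of all genes. The median log2 difference of the members was -0.59 in diabetic and -0.62 in control cells, and that of all tested genes -0.25 and -0.30. The rule that chose the members bears on this balance, and the tested genes passed another filter. A mean under 1 CPM in stimulated libraries was seen for 37 members, and in unstimulated ones for 18. The split among the 72 members of at least 1 CPM in both states is not given here. Of the members, 37 were higher and 74 lower in stimulated cells of both phenotypes, 4 were called in diabetic cells alone, 6 in control cells alone and 5 in neither. The same overlap over all tested genes was not computed. Over the 127 members the responses of the phenotypes, which share no library, correlated at r = 0.98. The balance of higher and lower calls follows the scaling. With scaling by total reads, the split was 28 higher and 87 lower in diabetic and 27 higher and 85 lower in control cells, and the median of all tested genes moved to -0.83 and -0.92. With median-of-ratios scaling that median was 0.017 in both phenotypes. The split of the members under that scaling is not given here.

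**Figure D2:**
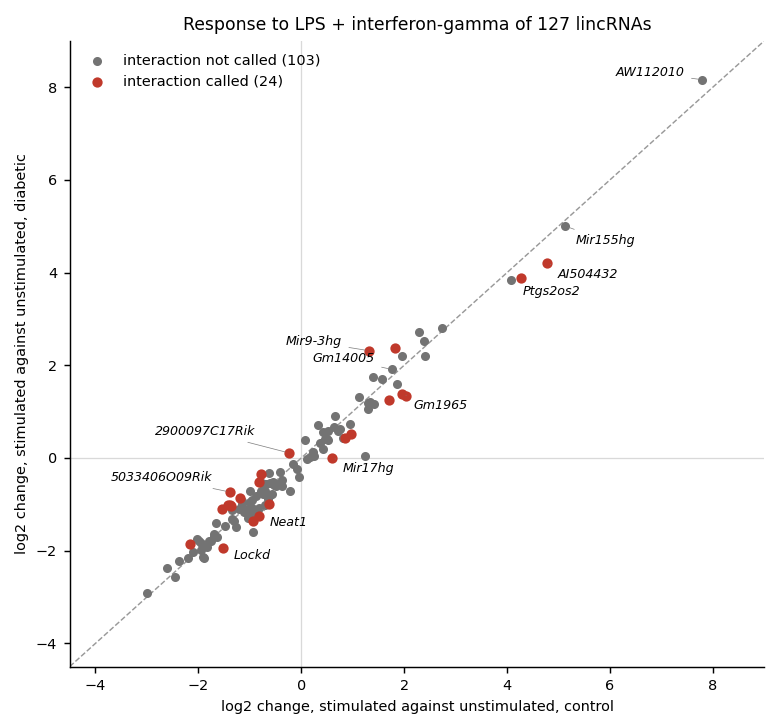
Log2 difference of CPM + 1 between stimulated and unstimulated cells for the 127 lincRNAs, in diabetic cells (vertical axis) against control cells (horizontal axis), with the line of equality dashed. Red points are the 24 members whose interaction was called at adjusted p under 0.05. Points lie close to the line (r = 0.98), with AW112010 at the far end (8.16 and 7.79) and Mir9-3hg above the line.

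Among the lincRNAs that fell, AC125351.1 had the largest change on the log2(CPM + 1) scale. It averaged 0.336 ± 0.109 CPM in stimulated diabetic and 0.225 ± 0.138 CPM in stimulated control cells, against 9.08 ± 1.15 and 8.79 ± 0.895 CPM in the unstimulated diabetic and control cells (SD, n = 6 each), a fall of 2.91 ± 0.08 and 3.0 ± 0.08 (limma, adjusted p = 2.5e-23 and 1.1e-23). It lies 958 bp from Map3k9, a kinase of the JNK pathway, on the same strand, which fell by 3.44 ± 0.08 and 3.87 ± 0.08. Gm38399, which overlaps Nav1 on the same strand, fell by 2.02 ± 0.08 in diabetic and 2.10 ± 0.08 in control cells, close to 2.16 ± 0.05 and 2.05 ± 0.05 for Nav1. C030034L19Rik, which overlaps Zfp704 on the opposite strand, averaged 0.0463 CPM in stimulated diabetic and 0.0759 CPM in stimulated control cells, and 4.54 ± 1.08 and 5.58 ± 0.692 CPM in the unstimulated diabetic and control cells. Gm5086 fell by 2.23 ± 0.07 and 2.38 ± 0.07, AC101945.2 (AU022793 in GENCODE M21) by 2.58 ± 0.13 and 2.46 ± 0.13 and Zfp469, typed lincRNA in both annotations, by 1.78 ± 0.09 and 1.75 ± 0.09 in diabetic and control cells. Pvt1, which lies beside Myc, averaged 0.277 ± 0.110 CPM in stimulated diabetic and 0.351 ± 0.0916 CPM in stimulated control cells, against 3.19 ± 0.384 and 3.19 ± 0.248 CPM in the unstimulated diabetic and control cells. It fell by 1.72 ± 0.07 and 1.63 ± 0.07 with no difference called between phenotypes, while Myc, 47612 bp away, differed by -1.08 ± 0.08 after stimulation (adjusted p = 2.9e-10).

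The nuclear-body RNAs fell less. Neat1, the scaffold of paraspeckles, had 505, 620 and 688 CPM (lowest, median and highest) in stimulated diabetic, 576, 675 and 829 CPM in stimulated control, 1070, 1324 and 1418 CPM in unstimulated diabetic and 1086, 1208 and 1318 CPM in unstimulated control libraries. All stimulated libraries lay below all unstimulated ones. The fall was 1.08 ± 0.09 in diabetic and 0.82 ± 0.09 in control cells (limma, adjusted p = 1.3e-11 and 2.6e-09), and the interaction of -0.26 ± 0.13 was not called (adjusted p = 0.12). Malat1, a nuclear speckle RNA, varied more between libraries of a group, from 291 to 728 CPM in stimulated diabetic, 431 to 816 in stimulated control, 610 to 1016 in unstimulated diabetic and 561 to 940 in unstimulated control libraries. Its difference was -0.72 ± 0.21 in diabetic (adjusted p = 0.0034) and -0.23 ± 0.21 in control cells (adjusted p = 0.32), and the difference between the responses was not called (-0.50 ± 0.30, adjusted p = 0.22). Malat1's call in diabetic cells was lost with median-of-ratios scaling (-0.44, adjusted p = 0.058) and within the second block of columns (-0.29, adjusted p = 0.18). Pvt1, described above, and Neat1 belong to a list of nuclear and architectural RNAs. Of its 8 tested genes, 2 rose and 5 fell in diabetic cells, and 2 rose and 5 fell in control cells. The list also holds 2900097C17Rik, described below as cytoplasmic, which is among those that rose in diabetic and fell in control cells. Over all tested genes, 35.2% rose and 55.1% fell in diabetic cells, and 34.9% rose and 56.4% fell in control cells.

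The hosts of small nucleolar RNAs, transcripts whose introns supply guides of ribosomal RNA modification, mostly fell. Of 13 tested hosts of the list, 1 was higher and 12 were lower in stimulated diabetic cells, and 0 were higher and 11 lower in stimulated control cells, beside 55.1% and 56.4% of all tested genes that were lower. The 4 that belong to the members were all lower in both phenotypes. Snhg12 averaged 1.26 ± 0.273 CPM in stimulated diabetic and 1.08 ± 0.255 CPM in stimulated control cells, against 4.95 ± 0.239 and 5.51 ± 0.516 CPM in the unstimulated diabetic and control cells. Epb41l4aos fell by 1.12 ± 0.08 and 1.34 ± 0.08, Snhg20 by 0.86 ± 0.09 and 1.18 ± 0.09 and Snhg6 by 0.31 ± 0.07 and 0.42 ± 0.07 in diabetic and control cells. The fall of Snhg6 was not called with median-of-ratios scaling (-0.06 and -0.12, adjusted p = 0.45 and 0.13). Of the 13 hosts, 6 had a positive interaction, a smaller fall or a larger rise in diabetic cells, and 0 a negative one, among them Snhg1 (0.53), Snhg17 (0.68) and the member Snhg20 (0.32 ± 0.12, adjusted p = 0.044), whose call was lost with median-of-ratios scaling (adjusted p = 0.063) and within each block of columns. Beside this, 19.6% of all tested genes had a positive interaction that was called.

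Of the microRNA hosts, 5 were members, and besides Mir155hg and Mir9-3hg these were Mir17hg, Mir142hg and Ftx. Mir17hg, which carries the miR-17-92 cluster and is known as a target of Myc, had 3.08, 3.96 and 4.53 CPM (lowest, median and highest) in stimulated diabetic, 4.33, 6.13 and 7.66 CPM in stimulated control, 3.43, 3.85 and 4.53 CPM in unstimulated diabetic and 3.23, 3.58 and 4.10 CPM in unstimulated control libraries. The stimulated control libraries lay above all unstimulated control ones, and the stimulated diabetic libraries overlapped the unstimulated diabetic ones. Its response was 0.00 ± 0.10 in diabetic (adjusted p = 0.99) and 0.59 ± 0.10 in control cells (limma, adjusted p = 1.8e-06), with an interaction of -0.59 ± 0.14 (adjusted p = 0.0015) that was not called within the second block of columns (-0.45, adjusted p = 0.087). With scaling by total reads the value in diabetic cells was -0.51 (adjusted p = 9.3e-06) and that in control cells 0.00, and the interaction was -0.51 (adjusted p = 0.0033). Mir142hg, host of the blood-cell microRNA miR-142, rose by 0.32 ± 0.10 and 0.36 ± 0.10 in diabetic and control cells, and these became -0.25 and -0.28 with scaling by total reads. Ftx, an X-linked transcript that also holds microRNAs, fell by 1.68 ± 0.10 and 1.69 ± 0.10. All 4 tested genes of the list of imprinted and X-linked noncoding RNAs fell in both phenotypes, as did 55.1% of all tested genes in diabetic and 56.4% in control cells. Of all 10 tested hosts of the list, 4 rose and 4 fell in diabetic and 5 rose and 4 fell in control cells. Of all tested genes, 35.2% rose in diabetic and 34.9% in control cells.

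Diabetic and control cells were next compared within each state. Without stimulation 25 members were called, 8 higher and 17 lower in diabetic cells, or 19.7% of the members, beside 19.3% of all tested genes (9.16% higher, 10.2% lower). After stimulation 43 were called, 19 higher and 24 lower, or 33.9% of the members, beside 51.7% of all tested genes (29.8% higher, 21.9% lower). Read by level, among the tested genes of 1 to 5 CPM, 33.9% were called after stimulation and 32 of 89 members of that range were, while of the genes from 5 CPM upwards 56.8% were called and 11 of 38 members were. The median difference of the members was 0.00 without and -0.04 after stimulation, beside -0.00 and 0.03 over all tested genes. With scaling by total reads the split after stimulation was 26 higher and 17 lower. Of the 53 members called in either state, 14 had the same sign in both, 1 had opposite signs, 10 were called without stimulation only and 28 after stimulation only. This overlap was not computed over all tested genes, of which more were called after stimulation too, so it is no trait of the members.

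The order of the columns divides the libraries into 2 sets of 12, here called blocks, with 3 mice of each phenotype in each, which the labels do not name as a batch. Within a block, where only 3 mice of each phenotype were compared, 14 members were called without stimulation in the first and 6 in the second. The shares of all tested genes called within a block are not given here. No called difference between phenotypes of a member named here changed its sign within a block.

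Gm29340 and 1110002J07Rik were lower in stimulated diabetic cells. Gm29340 averaged 0.965 ± 0.173 CPM in stimulated diabetic and 2.26 ± 0.614 CPM in stimulated control cells (SD, n = 6 each), and 1110002J07Rik averaged 1.41 ± 0.257 and 2.80 ± 0.323 CPM. In neither did the stimulated groups overlap, and the differences were -0.72 ± 0.10 and -0.66 ± 0.09 (limma, adjusted p = 6.3e-07 and 7.5e-07).

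On the log2(CPM + 1) scale, the most negative difference between unstimulated diabetic and control cells was that of AC238811.2 (chr13:120010390-120018931, + strand), named Gm36161 in GENCODE M21. It had 1.44, 1.99 and 3.54 CPM (lowest, median and highest) in unstimulated diabetic and 4.69, 5.56 and 8.01 CPM in unstimulated control libraries, and 13.1, 15.2 and 17.8 CPM in stimulated diabetic and 20.4, 22.4 and 27.2 CPM in stimulated control libraries. The groups did not overlap in either state. The differences were -1.12 ± 0.12 without stimulation (limma, adjusted p = 3.2e-07) and -0.57 ± 0.12 after it (adjusted p = 0.00047). The nearest coding gene, Gm21188 at 15674 bp, differed by -1.03 ± 0.11 and -0.44 ± 0.11. AW112010 was also lower in unstimulated diabetic cells, at 3.86 ± 0.561 CPM against 6.63 ± 1.95 CPM in unstimulated control cells (SD, n = 6 each), a difference of -0.62 ± 0.12 (adjusted p = 0.00078) with no overlap. After stimulation its difference of -0.25 ± 0.12 was not called (adjusted p = 0.092), but it was with a pseudocount of 5 CPM (adjusted p = 0.017), with median-of-ratios scaling (adjusted p = 0.040) and with the stimulated libraries fitted alone (adjusted p = 0.0055). Within the blocks the unstimulated difference was -0.71 (adjusted p = 0.0024) and -0.53 (adjusted p = 0.21). The summed interferon-stimulated genes were lower in the unstimulated diabetic libraries too, as given above, and their part in this difference was not tested.

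Gm26797 and Gm6634 were lower in diabetic cells in both states. Gm26797 had 3.67, 4.11 and 4.70 CPM (lowest, median and highest) in stimulated diabetic and 5.59, 7.75 and 8.88 CPM in stimulated control, and 1.05, 1.30 and 1.42 CPM in unstimulated diabetic and 1.81, 2.10 and 2.57 CPM in unstimulated control libraries. Neither pair overlapped. The differences were -0.71 ± 0.08 after stimulation and -0.46 ± 0.08 without it (limma, adjusted p = 6.7e-08 and 0.00013), while Ano10, 1446 bp away on the same strand, differed by 0.10 ± 0.04 and -0.10 ± 0.04. Gm6634 averaged 0.804 ± 0.181 CPM in stimulated diabetic and 2.21 ± 0.451 CPM in stimulated control cells, and 1.44 ± 0.474 CPM in unstimulated diabetic and 2.31 ± 0.483 CPM in unstimulated control cells. Its differences were -0.83 ± 0.12 and -0.45 ± 0.12 (adjusted p = 1.7e-06 and 0.0060). Within the second block of columns the unstimulated differences of Gm26797 (-0.49, adjusted p = 0.054) and Gm6634 (-0.50, adjusted p = 0.12) were not called.

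**Figure D3:**
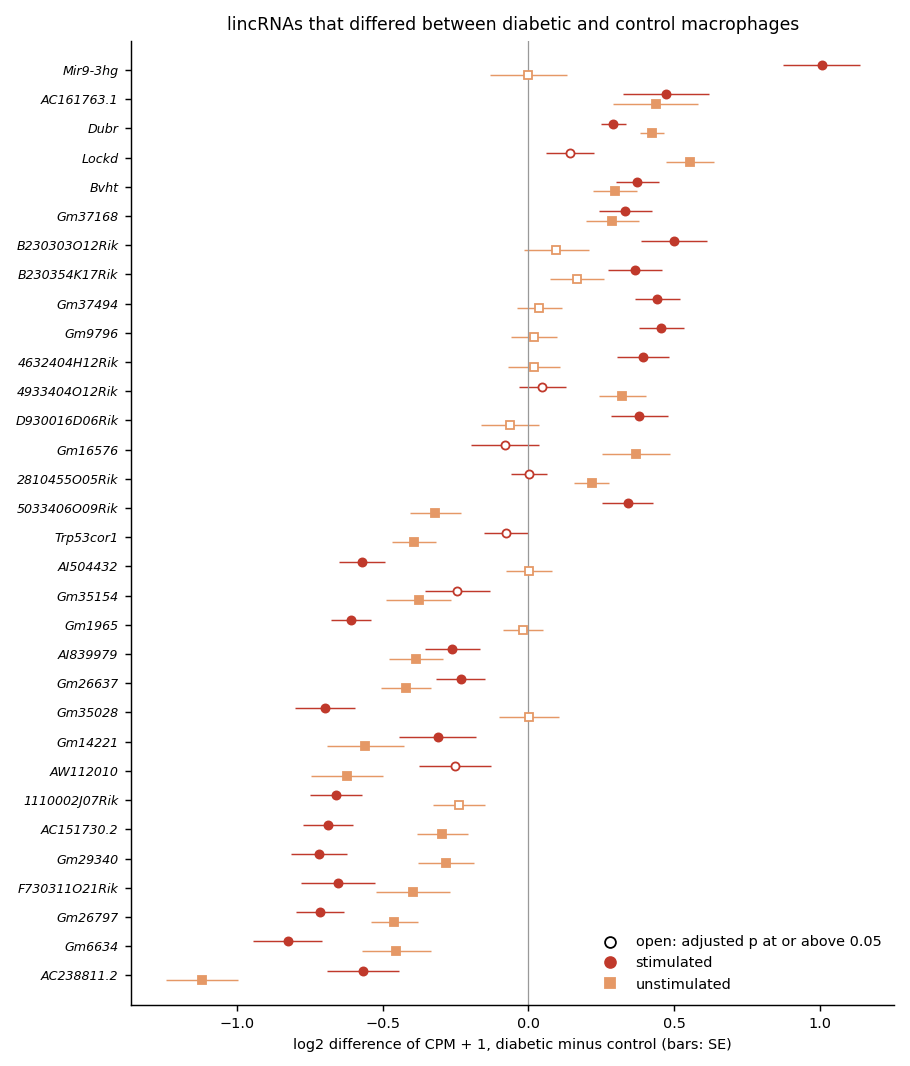
Log2 difference of CPM + 1, diabetic minus control, for the lincRNAs with the largest called differences in either state, with SE as bars. Circles are stimulated and squares unstimulated cells, and open symbols have an adjusted p at or above 0.05. Mir9-3hg lies at 1.01 after stimulation, and AC238811.2 at -1.12 without it.

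Trp53cor1, or lincRNA-p21, a target of p53 beside Cdkn1a, averaged 2.15 ± 0.203 CPM in unstimulated diabetic and 3.15 ± 0.490 CPM in unstimulated control cells (SD, n = 6 each), without overlap. The difference of -0.39 ± 0.08 (limma, adjusted p = 0.00032) was -0.08 ± 0.08 after stimulation. Cdkn1a, the p21 cell cycle inhibitor 12018 bp away, differed by -0.02 ± 0.06 without and -0.17 ± 0.06 after stimulation, and rose by 2.37 ± 0.06 and 2.52 ± 0.06 with the stimulus in diabetic and control cells, where Trp53cor1 fell by 0.51 ± 0.08 and 0.83 ± 0.08. Gm26637, which overlaps the interferon-induced kinase gene Eif2ak2 on the opposite strand, differed by -0.42 ± 0.08 without stimulation (adjusted p = 0.00056), beside -0.58 ± 0.07 for Eif2ak2. Snhg6 differed by -0.26 ± 0.07 (adjusted p = 0.013). Within the second block of columns Trp53cor1 (adjusted p = 0.066) and Gm26637 (adjusted p = 0.058) were not called, and Snhg6 was called in neither block (adjusted p = 0.082 and 0.25).

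Lockd and Dubr were higher in diabetic cells. Lockd, transcribed 3579 bp from the cell cycle inhibitor gene Cdkn1b on the same strand, had 4.40, 4.94 and 5.17 CPM (lowest, median and highest) in unstimulated diabetic and 2.25, 3.05 and 3.64 CPM in unstimulated control libraries, without overlap. The difference was 0.56 ± 0.08 (limma, adjusted p = 1.2e-05), and 0.36 (adjusted p = 0.091) within the second block of columns. After stimulation Lockd averaged 0.526 ± 0.164 CPM in diabetic and 0.379 ± 0.0900 CPM in control cells, which was not called (0.14 ± 0.08, adjusted p = 0.15). Cdkn1b differed by 0.12 ± 0.10 without stimulation (adjusted p = 0.47). Dubr, described in mouse muscle precursors, had 40.0, 47.5 and 50.3 CPM in stimulated diabetic and 36.5, 37.5 and 38.0 CPM in stimulated control, and 29.1, 30.2 and 31.5 CPM in unstimulated diabetic and 20.9, 22.5 and 23.2 CPM in unstimulated control libraries. Neither pair overlapped, and the differences were 0.29 ± 0.04 and 0.42 ± 0.04 (adjusted p = 2.4e-06 and 3.7e-08). Its rise with the stimulus, 0.59 ± 0.04 in diabetic and 0.72 ± 0.04 in control cells, was -0.03 and 0.03 with scaling by total reads.

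Bvht, named Braveheart for its role in mouse heart development, differed by 0.37 ± 0.08 after stimulation and 0.30 ± 0.08 without it (limma, adjusted p = 0.00015 and 0.0046), and the unstimulated difference was called in neither block of columns (adjusted p = 0.10 and 0.092). Bc1 (AC161763.1 in the table), a short RNA known from neurons, had 4.76 ± 0.817 CPM in stimulated diabetic and 3.20 ± 0.883 CPM in stimulated control cells, and 2.66 ± 0.790 and 1.69 ± 0.456 CPM in the unstimulated diabetic and control cells. Its groups overlapped in both states, and its unstimulated call (0.44 ± 0.15, adjusted p = 0.035) was lost with a pseudocount of 5 CPM (adjusted p = 0.057), without control mouse 3 (0.34, adjusted p = 0.067) and within each block of columns (adjusted p = 0.25 and 0.17). Gm14005, which RefSeq names Morrbid and which in mouse myeloid cells controls its neighbour Bcl2l11, had 6.79, 8.36 and 9.49 CPM (lowest, median and highest) in stimulated diabetic and 5.61, 6.43 and 8.17 CPM in stimulated control libraries. Its difference was 0.31 ± 0.09 (adjusted p = 0.0038), and 0.34 within the second block of columns (adjusted p = 0.058), while Bcl2l11, the gene of the death factor Bim, differed by 0.01 ± 0.10.

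**Figure D4:**
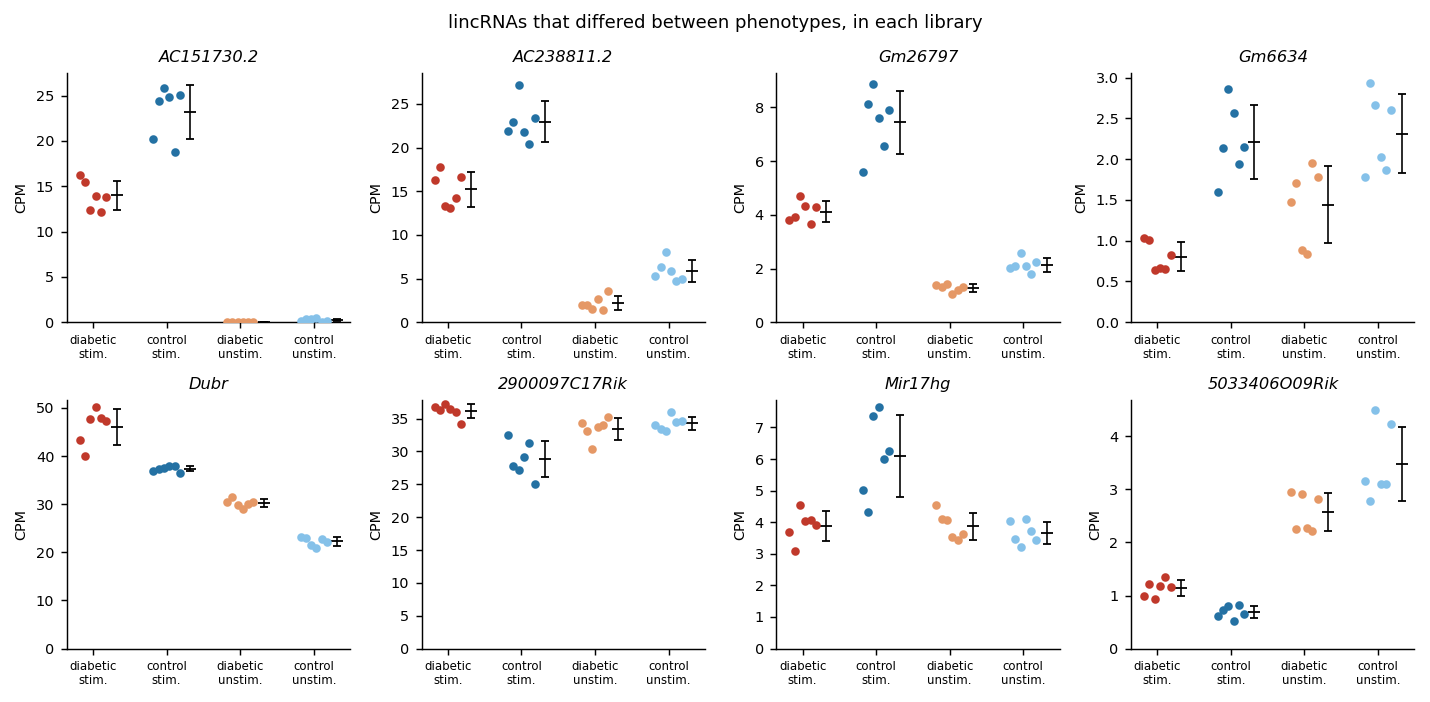
Level (CPM) of 8 lincRNAs that differed between phenotypes, in each of 24 libraries, by group from left to right stimulated diabetic, stimulated control, unstimulated diabetic and unstimulated control. Points are libraries and the dash and bars are the mean and SD of 6 libraries. Diabetic libraries of AC238811.2 and Gm26797 lay below and those of Dubr above the control libraries in both states, and 5033406O09Rik crossed over between the states.

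The difference between phenotypes depended on the state for 24 members, 12 with a positive and 12 with a negative interaction, or 18.9% of the members, beside 32% of all tested genes (19.6% positive, 12.4% negative). With scaling by total reads the split was 15 positive and 8 negative, and with median-of-ratios scaling 10 positive and 18 negative. 2900097C17Rik, which RefSeq names Norad, a cytoplasmic decoy of PUMILIO proteins, was the single member called in opposite directions by the stimulus. It had 34.2, 36.4 and 37.3 CPM (lowest, median and highest) in stimulated diabetic, 25.1, 28.5 and 32.6 CPM in stimulated control, 30.4, 33.9 and 35.2 CPM in unstimulated diabetic and 33.1, 34.3 and 36.0 CPM in unstimulated control libraries. All stimulated diabetic libraries lay above all stimulated control ones. Its response was 0.11 ± 0.05 in diabetic and -0.25 ± 0.05 in control cells (limma, adjusted p = 0.032 and 2.2e-05), with an interaction of 0.36 ± 0.07 (adjusted p = 0.00021). The direction of each response turned with the scaling, to -0.51 in diabetic cells with total reads and to 0.08 in control cells with median-of-ratios scaling, while the interaction was called under both.

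5033406O09Rik was the single member called in opposite directions between phenotypes. It had 0.940, 1.17 and 1.36 CPM (lowest, median and highest) in stimulated diabetic and 0.526, 0.690 and 0.818 CPM in stimulated control, and 2.22, 2.54 and 2.96 CPM in unstimulated diabetic and 2.78, 3.13 and 4.5 CPM in unstimulated control libraries. The stimulated groups did not overlap and the unstimulated ones did. The differences were 0.34 ± 0.09 after stimulation and -0.32 ± 0.09 without it, and the interaction was 0.66 ± 0.12 (limma, adjusted p = 0.00020). The difference after stimulation was not called within the second block of columns (0.30, adjusted p = 0.081). Gm37494 fell to 11.3 ± 1.30 CPM in stimulated diabetic and 8.10 ± 1.04 CPM in stimulated control cells, against 23.9 ± 2.58 and 23.2 ± 0.940 CPM in the unstimulated diabetic and control cells, with an interaction of 0.40 ± 0.11 (adjusted p = 0.0054) that was not called within the first block (0.22, adjusted p = 0.27). Its neighbour Zfp619, a zinc finger gene 3982 bp away on the same strand, had 0.38 ± 0.14.

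Over both states together, on the means of each mouse's 2 libraries, 44 members were called, 17 higher and 27 lower in diabetic cells, or 34.7% of the members, beside 44.7% of all tested genes (24.3% higher, 20.4% lower). With scaling by total reads the split was 26 higher and 24 lower. The largest differences were -0.84 ± 0.10 for AC238811.2, -0.64 ± 0.09 for Gm6634 and -0.59 ± 0.07 for Gm26797 among the lower and 0.50 ± 0.09 for Mir9-3hg, 0.45 ± 0.12 for Bc1 (AC161763.1) and 0.36 ± 0.03 for Dubr among the higher ones. Mir9-3hg had no read without stimulation, so its value comes from the stimulated libraries alone and is no difference shared by both states. Its call was lost on the deposited log2 values (limma, adjusted p = 0.059).

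In the response to stimulation, more members shared the sign of their nearest tested protein-coding gene than opposed it. Over the 127 pairs, which share their libraries, the response of the member and of its neighbour correlated at r = 0.58 in diabetic and r = 0.57 in control cells. Within 10 kb (63 pairs) r was 0.68 and 0.67, and beyond it (64 pairs) 0.49 and 0.48. Of the 107 pairs in diabetic cells in which both genes were called, 77 had the same sign and 30 opposite signs. The same sign was shared by 37 of 52 such pairs within 10 kb and by 40 of 55 beyond it. The share among pairs of unrelated genes was not computed, so these counts have no background beside them. For the difference between phenotypes r was 0.27 after stimulation and 0.40 without it. After stimulation, 16 of the pairs with both genes called had the same sign and 11 opposite signs (6 and 7 within 10 kb). For the interaction r was 0.39, and all 15 pairs with both genes called had the same sign. These are descriptions over genes, which are not independent, and the spans of 12 members overlap that of their neighbour.

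**Figure D5:**
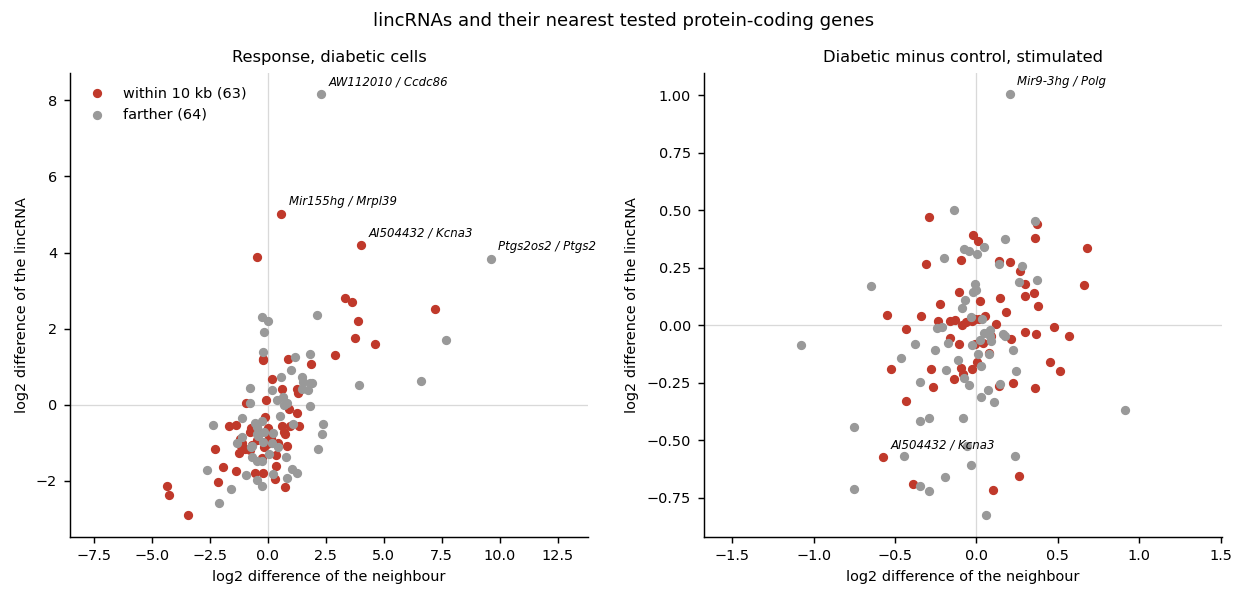
Log2 difference of CPM + 1 of each lincRNA (vertical axis) against that of its nearest tested protein-coding gene (horizontal axis), for the response in diabetic cells (left) and for diabetic minus control in stimulated cells (right). Red points are the 63 pairs within 10 kb and grey points the 64 pairs farther apart. Mir155hg and AW112010 lie far above their neighbours Mrpl39 (0.58) and Ccdc86 (2.29), and AI504432 lies close to Kcna3 (4.20 and 4.01).

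The promoters of 3 members that rose in both phenotypes, chosen after their values were seen, are shown because they hold a match to a motif of a factor that LPS or interferon activates. RefSeq promoter windows (GRCm38.p6, 250 bases before to 50 after the start) were matched for 69 of the 127 members and searched on both strands for the interferon-stimulated response element (ISRE), TTCNNNGAA (the interferon-gamma-activated site, GAS), TGANTCA (AP-1), TATAAA and the NF-kB site. The windows are given 5′ to 3′ along the gene's strand in lower case, and capitals mark ISRE, GAS, AP-1 and NF-kB matches.
Ptgs2os2 (chr1:150164899-150165198, - strand): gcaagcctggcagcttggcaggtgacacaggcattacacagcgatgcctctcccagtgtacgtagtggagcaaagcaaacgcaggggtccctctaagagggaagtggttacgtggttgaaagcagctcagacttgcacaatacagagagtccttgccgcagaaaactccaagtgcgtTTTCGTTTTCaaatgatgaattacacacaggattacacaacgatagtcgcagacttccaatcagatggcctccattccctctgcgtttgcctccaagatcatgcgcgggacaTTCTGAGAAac
AW112010 (chr19:11050517-11050816, - strand): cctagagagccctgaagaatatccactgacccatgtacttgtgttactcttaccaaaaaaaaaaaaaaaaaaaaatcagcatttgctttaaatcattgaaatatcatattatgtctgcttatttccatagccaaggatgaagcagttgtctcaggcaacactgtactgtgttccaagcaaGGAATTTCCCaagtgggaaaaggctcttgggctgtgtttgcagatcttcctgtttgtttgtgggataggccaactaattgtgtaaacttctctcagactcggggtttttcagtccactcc
Gm26797 (chr9:122310879-122311178, - strand): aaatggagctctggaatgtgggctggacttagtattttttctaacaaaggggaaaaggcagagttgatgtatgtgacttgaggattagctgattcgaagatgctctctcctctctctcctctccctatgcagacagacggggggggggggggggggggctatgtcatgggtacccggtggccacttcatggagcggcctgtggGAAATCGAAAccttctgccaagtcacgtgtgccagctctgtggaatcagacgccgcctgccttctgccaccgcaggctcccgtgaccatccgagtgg
The Ptgs2os2 window holds an ISRE match at bases 178 to 187 on the opposite strand and a GAS match at bases 290 to 298, past the start site. The AW112010 window holds an NF-kB match at bases 181 to 190 and the Gm26797 window an ISRE match at bases 204 to 213. These matches are of the kind that other promoters hold too. An ISRE match was in 5.80% of the 69 members' windows and in 3.44% of 32851 windows, GAS in 4.35% and 8.30%, AP-1 in 11.6% and 7.81%, TATAAA in 8.70% and 13.6% and the NF-kB site in 5.80% and 8.46%. Of the 37 members higher in both phenotypes, 21 had a window, and 3 of these held ISRE (Gm26797, Gm46224 and Ptgs2os2), 3 the NF-kB site (9330175E14Rik, A930007I19Rik and AW112010) and 2 GAS (Dubr and Ptgs2os2). Of the 74 lower in both, 40 had a window, with 1, 1 and 1 such matches. AP-1 was in 2 of the 21 and 4 of the 40 windows, and TATAAA in 3 and 3. A match is a description of letters and not a site of binding, and no binding was measured here.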

How the data were processed

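RNA from 24 bone-marrow macrophage cultures was sequenced from stranded mRNA libraries, per the labels' protocols. The submitters' processing notes name STAR 2.5.3a, R 3.3.3 and edgeR 3.16.5 and the builds GRCm38 and mm10; no source used here names the counting tool or its use of strand. Values were deposited by the authors as log2 CPM. Their 75th percentile was the same in every library (log2 5.70), and their lowest value, log2 -6.67, was shared by all libraries.

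CPM was recovered by removing that floor from the deposited log2 values, and 100% of values were whole reads within 0.01 read, from 16754771 to 34130060 reads a library. Since the deposited unit is log2, limma 3.58.1 (R 4.3.3, trend, robust) was fitted to log2(CPM + 1) for the 11710 genes that reached 1 CPM in 6 or more libraries, as 1 model of 4 group means over 24 libraries. SEs and p-values rest on the spread shared by the groups, and measure the spread between mice. Both states together were tested on 12 mouse means. P-values were two-sided, adjusted by Benjamini-Hochberg over all tested genes, with a threshold of 0.05. The fit was tested on simulated data. Figures were drawn with matplotlib 3.10.9, and tables were handled in pandas 2.3.3 under Python 3.11.15.

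Replicate numbers mark the same mouse in both states, per the design text, which divides each sample; deviations of the paired libraries correlated at -0.0816 to 0.40, above 0.1 in 5 of 12 mice. Replicates within groups correlated at 0.994 to 0.998 and none was a duplicate (chi-square per degree of freedom at least 3.19). The members, lists and blocks were chosen with earlier results of these data known. The text names up to 10 members with the largest called rise and fall per comparison, the 10 most abundant, members of the lists, and their neighbours. Other pseudocounts, filters, scalings, weights, sample sets, blocks and membership thresholds were tried, and leaving out the 2 libraries highest in Gm42418 was chosen after seeing the data.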

Additional observations from a re-analysis of the deposited data

Results flagged for a closer look

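In 18 of 268 groups of 6 libraries, the highest or lowest library of a named member stood far from the others by Dixon's test; chance gives about 1 in 20 groups. Gm42418 stood at 3875 CPM in the stimulated control library of mouse 6 and at 980.4 CPM in the unstimulated diabetic library of mouse 3, and Gm26917 at 138.1 and 65.92 CPM in the same libraries. In the stimulated control library of mouse 3, Gm35154 was high at 2.625 CPM (the others reached 1.907), Gm29340 high at 3.473 CPM (the others 2.279) and Snhg20 low at 1.131 CPM. D930016D06Rik was high at 1.344 CPM in the stimulated control library of mouse 4, 1810058I24Rik at 34.82 CPM in that of mouse 6 and 1110002J07Rik low at 0.94 CPM in the stimulated diabetic library of mouse 3. Among unstimulated diabetic libraries, Gm37494 was low at 19 CPM in mouse 3, Gm26902 high at 0.4176 CPM in mouse 6 and Pvt1 high at 3.93 CPM in mouse 5. Among unstimulated control libraries, B230354K17Rik was low at 10.31 CPM and AC101945.2 high at 9.903 CPM in mouse 2, 2610035D17Rik high at 5.538 CPM in mouse 1, Gm46224 high at 1.995 CPM in mouse 3 and 1700020I14Rik high at 99.58 CPM in mouse 5.

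The response to stimulation differed between diabetic and control cells, by the interaction test, for 23 named members (limma, Benjamini-Hochberg). It was more positive in diabetic cells for Mir9-3hg (1.01), 5033406O09Rik (0.66), AC238811.2 (0.55), Gm9796 (0.44), D930016D06Rik (0.44), Gm37494 (0.40), 4632404H12Rik (0.37), 2900097C17Rik (0.36), Gm17586 (0.35), Trp53cor1 (0.32), Snhg20 (0.32) and Tmem250-ps (0.31), on the log2(CPM + 1) scale. It was more negative for Gm35028 (-0.70), Gm1965 (-0.59), Mir17hg (-0.59), AI504432 (-0.57), E130102H24Rik (-0.46), Gm16576 (-0.45), Gm29340 (-0.44), Gm33370 (-0.44), 1110002J07Rik (-0.42), Lockd (-0.41) and AC151730.2 (-0.39). AC151730.2 was barely read without stimulation, with lower levels in diabetic than in control cells, as given above. The size and sign of its interaction therefore depend on the pseudocount of 1 CPM. Adjusted p-values ran from 4.6e-05 for Gm1965 to 0.044 for Snhg20. Many of these calls were lost in part of the 12 alternative settings. Gm17586 and Trp53cor1 were called in 6 of the 12, Snhg20 and Gm33370 in 7, and Gm16576, Gm29340 and 4632404H12Rik in 8. AC238811.2, Lockd, 1110002J07Rik and E130102H24Rik were called in 9. The value of AC238811.2 was 0.12 (adjusted p = 0.39) at a pseudocount of 5 CPM. That of Lockd was -0.37 (adjusted p = 0.13) at a pseudocount of 0.25 CPM and -0.27 (adjusted p = 0.47) on the deposited log2 values. Mir9-3hg, 5033406O09Rik, 2900097C17Rik and AI504432 were called in all 12.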

How the results depend on the processing

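Depth limits the members near 1 CPM, where 3 reads are 0.0835 to 0.175 CPM, and the pseudocount of 1 CPM shrinks their differences. With the mouse as a replicate block, the calls were 25 and 43 between phenotypes without and after stimulation, 118 and 119 for the responses of diabetic and control cells and 27 for the interaction. Without control mouse 3 they were 22, 38, 117, 116 and 19, and 40 for both states together. The shares of all tested genes called under these and the other alternative settings are not given here, so the counts have no background beside them.

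Without stimulation, 14 and 6 members were called between phenotypes within the first and second block of columns, 4 and 1 of them higher and 10 and 5 lower. The higher ones numbered 5 with a pseudocount of 0.25 CPM, 5 on the deposited log2 values and 5 among members of at least 2 CPM. After stimulation, 10 were higher within the first block. For both states together, 27 and 25 were called within the blocks, 9 and 7 of them higher, and 26 were higher with scaling by total reads. For the interaction, 13 were called within the second block and 15 among members of at least 2 CPM, 4 were positive within the first block, and the negative ones numbered 7 with a pseudocount of 0.25 CPM, 4 on the deposited log2 values, 3 within the second block and 7 among members of at least 2 CPM. Shares of all tested genes called under these settings are not given here. The blocks hold 3 mice per phenotype, and the higher threshold leaves 77 members. Among those, 73 were called in the response of diabetic cells (44 lower) and 74 in that of control cells (43 lower), and with total reads 27 were higher in control cells.

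The direction of a response turned with scaling by total reads for Dubr (-0.030), 2900097C17Rik (-0.51) and Mir17hg (-0.51) in diabetic cells and for Mir142hg in diabetic (-0.25) and control cells (-0.28), and with median-of-ratios scaling for 2900097C17Rik in control cells (0.079). That scaling moves the median of all genes by its construction.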
